A study of Sus scrofa with 2 samples.

Results

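The messenger RNAs of the cytosolic ribosomal proteins were examined in pig (Sus scrofa) granulosa cells, the somatic cells that enclose and nourish the oocyte of an ovarian follicle. Members were taken by name: entries of type mRNA whose deposited symbol begins with RPL or RPS followed by a number, by A, or by the letter P of the stalk proteins, with the S6 kinases left out. The rule took 72 of the 34570 entries in the tables, 43 named for the large subunit and 28 for the small subunit. The remaining name, RPS19BP1, belongs to a protein that binds RPS19 and is counted with the members but with neither subunit. Of the 72, 65 had a value above 0 in both libraries (37 large, 27 small and RPS19BP1), and 7 were listed at 0 in both.

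The cells came from ovaries of Chinese Erhualian pigs. A group treated with a negative control siRNA (NC-siRNA) was set against a group treated with an siRNA to SMAD4, the SMAD shared by the TGF-beta, activin and BMP pathways. For each group, equal amounts of RNA from 3 individuals were combined and made into 1 library, so the spread between animals is not in the data. The labels give no dose, no time after transfection and no age, and do not state whether the same animals supplied both groups. There are no replicates and no test between the conditions, and every difference below is one between 2 libraries.

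A ribosome is built from a small subunit, which holds the messenger RNA and reads its codons, and a large subunit, which joins amino acids at the peptidyl transferase centre and feeds the new chain through an exit tunnel. Most ribosomal proteins are present in a single copy per ribosome. Their messenger RNAs are short and abundant and begin with a stretch of pyrimidines, the terminal oligopyrimidine or TOP motif, through which mTOR controls their translation. Protein synthesis on this scale supports the growth and hormone production of granulosa cells.

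The libraries held at least 17680952 reads on genes for control and 17394711 for SMAD4 siRNA, counted as the smallest whole numbers that the values allow. SMAD4 itself had a value of 85.0 with control siRNA and 47.9 with SMAD4 siRNA, a ratio of 0.563. Of the 9 granulosa markers found, 6 were above 0 in both libraries, among them FOXL2 at 132 and 146. FSHR, also among the 6, rested on 9 and 7 reads, while CYP19A1, AMH and CYP11A1 were listed at 0. The summed level of the granulosa markers was 14059 for control and 25320 (25319.5) for SMAD4 siRNA, most of it HSD3B1. Of 4 theca markers, DCN and COL3A1, which fibroblasts also express, summed to 39213 and 30072 (30071.5), and the steroidogenic CYP17A1 and LHCGR were listed at 0. Leukocyte markers summed to 579 and 566, nearly all CD14, with CD3E at 0, and endothelial markers to 278 and 244, nearly all PECAM1. The sums were 388 and 433 for surface epithelium, nearly all KRT8, and 76.1 and 61.7 for the oocyte, mostly GDF9. Of 2 erythroid markers 1, HBB, was above 0 in both libraries, on 1 read in each. Their part in the results below was not tested, and fewer cells of a type cannot be told apart from less RNA per cell.

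Ribosomal protein messages were among the most abundant of the cells. Values are reads per kilobase scaled by each library's upper quartile (upper-quartile RPKM), so levels of different genes can be compared per length. The 65 members held 11.4% of the summed values with control siRNA and 12.0% with SMAD4 siRNA, and their median value was 19966 (19965.6) and 18530 (18529.5). Of the 100 messenger RNA entries with the highest values, 34 were members with control siRNA and 33 with SMAD4 siRNA. Of the 65, 49 had values above 10000 in both.

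The highest level belonged to RPSA, a small subunit protein also known as the laminin receptor precursor, at 109791 with control siRNA and 100606 with SMAD4 siRNA. It ranked 9th and 8th of the 22826 messenger RNA entries. RPS20, a protein of the head of the small subunit, had 79742 and 69043. Within the large subunit RPL35, at the rim of the exit tunnel, led with 62698 and 63908, ahead of RPL8 with 48416 and 53073 and RPL19 with 45712 and 45942. RPSA and RPS20 thus lay above the first of the large subunit in both libraries.

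Although most of the proteins enter the ribosome in equal numbers, the levels of their messages were far apart. The mean value of the highest core protein gene was 54.2 times that of the lowest. The lowest core genes were RPL15 at 1904 and 1981, RPL9 at 2157 and 2619, and RPS21 at 2654 and 2448. The sources used here do not give how the authors assigned reads that match several copies of a gene. Ribosomal protein genes have many processed copies in mammalian genomes, so a low or zero value of a single entry may leave out reads given to a copy. The order of the members was nearly the same in both libraries, with a Spearman correlation of 0.993 over 65 genes. That correlation is across genes of the same 2 libraries and is a description only.

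**Figure D1:**
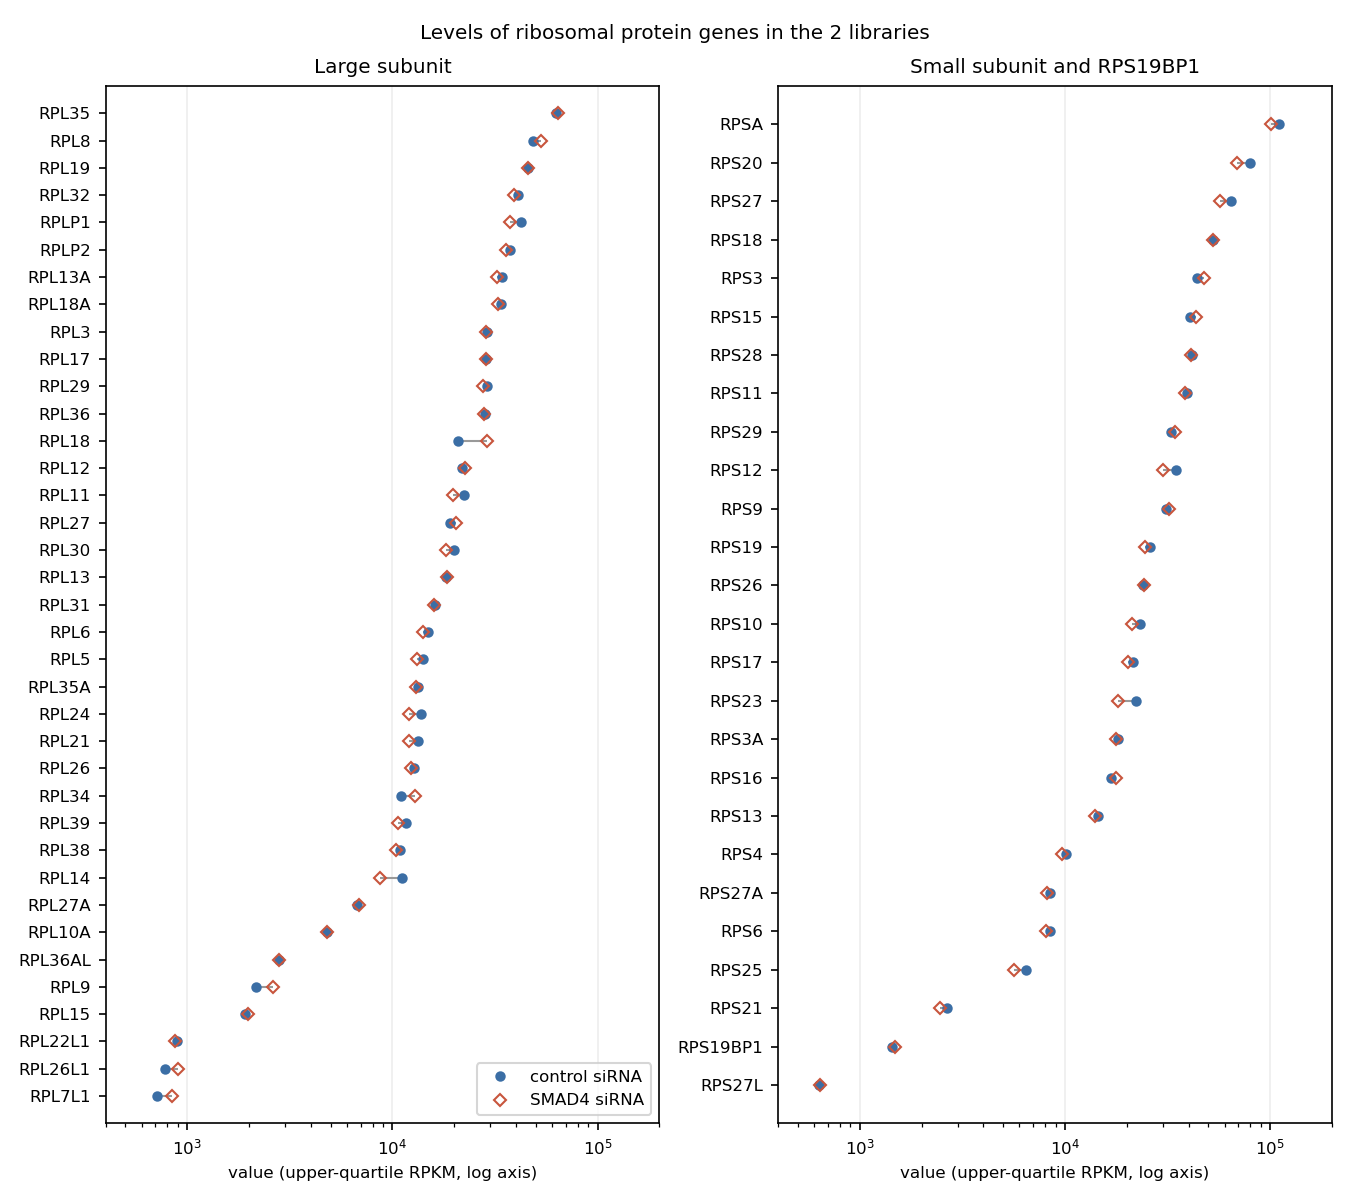
Value of the measured members, 2 of them not shown (upper-quartile RPKM, log axis), in the control siRNA library (filled circles) and the SMAD4 siRNA library (open diamonds), ordered by mean value within the large subunit (left) and the small subunit with RPS19BP1 (right); a line joins the values of a gene. Levels run from 635 for RPS27L to 109791 for RPSA, and the symbols of most genes lie on top of each other.

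The comparison asked how far these messages differ in granulosa cells when SMAD4 is knocked down. No member was higher or lower by at least 2-fold, counted on log2 of value + 1. Of all 16609 genes whose values averaged 1 or more, 7.17% were higher and 6.68% lower by that much. Among the 7084 genes with at least 300 reads over both libraries, a minimum set so that every measured member passes, 1.47% were past 2-fold in either direction and 6.54% were past 1.5-fold. None of the 65 members was past 1.5-fold in the deposited values. With the libraries scaled by total reads instead, RPL18 had a log2 ratio of 0.63, which is past 1.5-fold.

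The members were also close to each other. Their median log2 ratio of SMAD4 siRNA over control was -0.04, a median ratio of 0.975, beside -0.05 for all measured genes. Their interquartile range was 0.13 on the log2 scale, from -0.10 to 0.03. The same range was 0.35 for the 7084 genes with at least 300 reads, and 0.31 for the 291 entries outside the rule that averaged 5000 or more. These 291 have a median of 24853 reads each and the members 20294, so counting error is of similar size in both. Of the members, 52 of 65 lay within 10% of their median ratio.

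The 95% interval of each ratio, given below in parentheses, is the exact Clopper-Pearson interval for the part of a gene's reads that came from either library. It covers counting error only and leaves out differences between animals and between transfections. Reads were not marked with molecular identifiers, so they are not independent molecules. By these intervals 13 members lay wholly above 1 and 28 wholly below 1, while 24 held 1. Of the genes with at least 300 reads, 18.2% had an interval wholly above 1 and 38.8% wholly below, against 20% and 43.1% of the members. The shares of the members are thus near this background, which has fewer reads per gene. Of the 291 entries outside the rule that averaged 5000 or more, 79 lay wholly above 1, 171 wholly below and 41 held 1. These 291 have reads per gene similar to the members', and a smaller part of them held 1. Measured against the members' own median ratio, 22 intervals lay above it, 20 below it and 23 held it, so 42 of 65 differed from it by more than counting error. With ratios centred on the median of all measured genes, 24 members lay wholly above 1 and 18 wholly below. The same centring put 1701 of the 7084 genes with at least 300 reads wholly above and 2261 wholly below. Those genes have a median of 1283 reads each and the members 20294, so intervals of the members are narrower.

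The side of 1 on which the members fall depends on how the libraries are scaled. The authors' upper-quartile divisor, recovered from the values, was 890 for control and 980 for SMAD4 siRNA, which lowers every value of the latter by the same factor. Rescaling both libraries to the same sum of values adds 0.12 to every log2 ratio. It put 51 of 65 members above 1 and 14 below, where the deposited values put 23 above and 42 below. Of the 7084 genes with at least 300 reads, it put 3985 above and 3099 below, where the deposited values put 2756 and 4328. Scaling by total reads adds 0.16 and put 56 members above and 9 below, beside 4458 and 2626 of these genes. Under these scalings the median ratio of the members was 1.06 and 1.09, and that of genes with at least 300 reads was 1.03 and 1.06. Ratios below are those of the deposited values, and are best read against the members' median of 0.975.

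**Figure D2:**
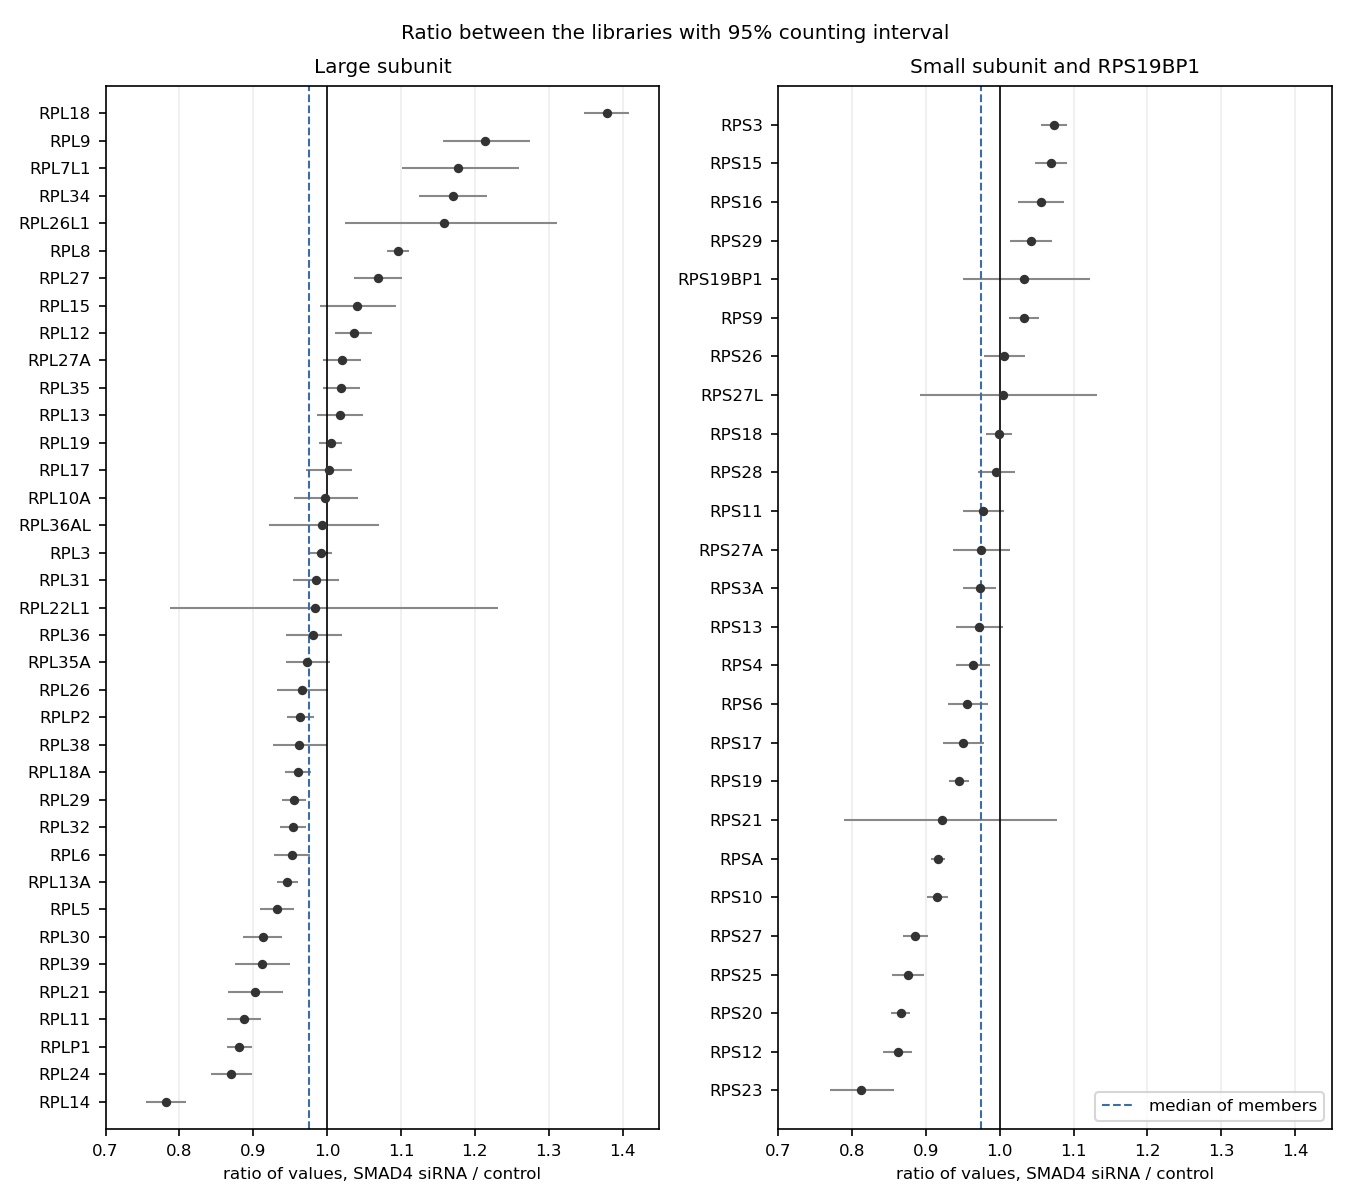
Ratio of the SMAD4 siRNA value to the control value for the measured members, 2 of them not shown, in the large subunit (left) and in the small subunit with RPS19BP1 (right); bars are 95% counting intervals from 1 library per group, the solid line marks 1 and the dashed line the members' median of 0.975. Ratios run from 0.782 for RPL14 to 1.38 for RPL18, and the small subunit spans 0.813 to 1.07.

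Large and small subunit members had median log2 ratios of -0.02 over 37 genes and -0.04 over 27 genes. The difference was 0.02 on the log2 scale, and it was not tested. With core proteins alone it was 0.01, from 33 large and 26 small subunit genes. Both tails were longer in the large subunit, whose log2 ratios ran from -0.35 to 0.46, against -0.30 to 0.10 in the small subunit. Without RPL18, described below, the highest large subunit value was 0.28. The interquartile range was not wider in the large subunit, at 0.10 against 0.13 in the small subunit. In the large subunit 8 intervals lay wholly above 1 and 15 wholly below, and in the small subunit 5 and 13, beside the 18.2% and 38.8% of genes with at least 300 reads given above. With both libraries rescaled to the same sum these counts were 28 and 4 in the large subunit and 18 and 5 in the small subunit. The same rescaling put 2401 of the 7084 genes with at least 300 reads wholly above 1 and 1611 wholly below.

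Small subunit messages were the more abundant per gene in both libraries. The median value of core small subunit genes was 24980 (24980.0) with control siRNA and 24339 with SMAD4 siRNA, against 19064 and 18530 (18529.5) for core large subunit genes. That is 1.31 times as high in either library. Summed over all measured members, small subunit values were 1.16 times large subunit values with control siRNA and 1.12 times with SMAD4 siRNA. The sums depend on which genes are listed at 0, and all 5 core genes listed at 0 belong to the large subunit.

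Described by place in the ribosome, in groups written after the values had been seen, the large subunit began with its stalk, which recruits the elongation factors. RPLP1, an acidic stalk protein, had a value of 42365 with control siRNA and 37339 with SMAD4 siRNA, a ratio of 0.881 (0.864 to 0.899). Its partner RPLP2 had 37243 and 35888, a ratio of 0.964 (0.946 to 0.982). RPL12, at the base of the stalk, had 21781 and 22562, a ratio of 1.04 (1.01 to 1.06). The 3 stalk genes were therefore not at one ratio, and none of their intervals overlapped another.

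At the peptidyl transferase centre, RPL3 had 28751 and 28500 (28499.7), a ratio of 0.991 (0.977 to 1.01). RPL8 had 48416 and 53073, a ratio of 1.10 (1.08 to 1.11), the sixth highest among the members. RPL10, which completes this centre late in assembly, was listed at 0. The genes around the exit tunnel were close together: RPL17, RPL19, RPL26, RPL31 and RPL35 had ratios between 0.966 and 1.02, and RPL39, which lines the tunnel, had 0.911 (0.875 to 0.949). For 5 of these 6 the interval held 1.

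RPL5 and RPL11 form the 5S ribonucleoprotein, which binds and inhibits the ubiquitin ligase MDM2 when ribosome assembly stalls. RPL5 had 14080 (14080.2) and 13117, a ratio of 0.932 (0.909 to 0.955), and RPL11 had 22365 and 19838, a ratio of 0.887 (0.864 to 0.910). Both intervals lay below the members' median ratio. MDM2 was at 63.7 and 78.1, a ratio of 1.23 (1.03 to 1.47). CDKN1A, a cell cycle inhibitor, was at 2486 and 2237, a ratio of 0.900 (0.864 to 0.938). RPL13A, known also as a translational silencer in the interferon response, had 34294 and 32438, a ratio of 0.946 (0.932 to 0.960). RPL10A had 4814 and 4802, a ratio of 0.998 (0.955 to 1.04).

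The lowest ratio of all members was that of RPL14, a protein of the solvent side of the large subunit, with 11129.9 under control siRNA and 8702 under SMAD4 siRNA. Its ratio was 0.782 (0.755 to 0.809) on 7033 and 6055 reads. RPL24, which forms a bridge to the small subunit, had 13855 and 12059, a ratio of 0.870 (0.843 to 0.899). RPL14, RPL24, RPLP1 and RPL11 were the 4 lowest of the large subunit. At the other end, RPL9 went with 2157 and 2619, a ratio of 1.21 (1.16 to 1.27), and RPL34 with 10996 and 12865, a ratio of 1.17 (1.12 to 1.22). The intervals of RPL9 and RPL34 lay above those of every small subunit core gene.

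In the small subunit the lowest ratio was that of RPS23, the protein at the decoding centre that helps keep reading accurate, with 22237 and 18071. Its ratio was 0.813 (0.771 to 0.857) on 2929 and 2621 reads. The other genes put in the group of the entry channel and decoding region here, RPS3, RPS15 and RPS9, were on the opposite side of 1. RPS3, which lines the messenger RNA entry channel, had 44172 and 47434, a ratio of 1.07 (1.06 to 1.09). RPS15 had 40788 and 43637, also 1.07 (1.05 to 1.09), and RPS9 had 1.03 (1.01 to 1.05). RPS3 and RPS15 were the 2 highest of the small subunit, followed by RPS16 at 1.06 (1.02 to 1.09) and RPS29 at 1.04 (1.01 to 1.07).

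After RPS23 the lowest of the small subunit were RPS12 in the beak, RPS20 in the head, and RPS25, a protein needed for initiation at some internal ribosome entry sites. RPS12 had 34870 (34870.3) and 30048, a ratio of 0.862 (0.842 to 0.882). RPS20 had a ratio of 0.866 (0.853 to 0.879) and RPS25, with 6430 (6430.35) and 5629, one of 0.875 (0.854 to 0.898). All 4 intervals lay below 0.9. The head was not uniform, since RPS18 had 52572 and 52527, a ratio of 0.999 (0.982 to 1.02). Around the messenger RNA exit, RPS13, RPS26 and RPS28 had intervals that held 1, with ratios from 0.972 to 1.01.

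RPS6, the target of the S6 kinases, had 8417 and 8050 (8050.43), a ratio of 0.956 (0.930 to 0.984). RPS27A, which is made as a fusion to ubiquitin, had 8406 and 8196, a ratio of 0.975 (0.937 to 1.01). RPSA, the most abundant, had a ratio of 0.916 (0.907 to 0.926). RPS19, the gene most often mutated in Diamond-Blackfan anaemia, a failure of red cell production, had 25876 and 24440 (24440.4), a ratio of 0.945 (0.931 to 0.958). Over 16 members known from that disease the median log2 ratio was -0.03, beside -0.04 over all members.

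RPL18 stood at the upper end of the members and has a second entry in the tables. The entry with the symbol had 20909 with control siRNA and 28821 with SMAD4 siRNA, a ratio of 1.38 (1.35 to 1.41). Of the genes with at least 300 reads, 3.60% had a log2 ratio as high or higher. An entry without a symbol, which the reference table of assembly Sscrofa11.1 also names RPL18, had 15696 and 4854 (4853.5), a ratio of 0.309 (0.296 to 0.323). Only 5 of the 7084 genes with at least 300 reads were as low or lower, counting this one. This entry is outside the name rule and was singled out after its values were seen.

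Together the 2 entries had 21170 (21170.0) reads with control siRNA and 22544 with SMAD4 siRNA. At the authors' scaling the ratio of the summed reads was 0.967 (0.949 to 0.985), close to the members' median of 0.975, and the ratio of the summed values was 0.920. The entry with the symbol held 61.5% (60.9 to 62.2, exact Clopper-Pearson) of these reads with control siRNA and 87.7% (87.3 to 88.1) with SMAD4 siRNA. These summed reads and shares take the smallest whole reads of each entry, which can fall short by a different factor for each. The ratio of the summed values, 0.920, does not depend on these factors. With the smallest reads, the opposite ratios of the entries nearly cancel in their sum. Whether the difference lies in the transcripts or in how reads were divided between the entries was not tested.

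**Figure D3:**
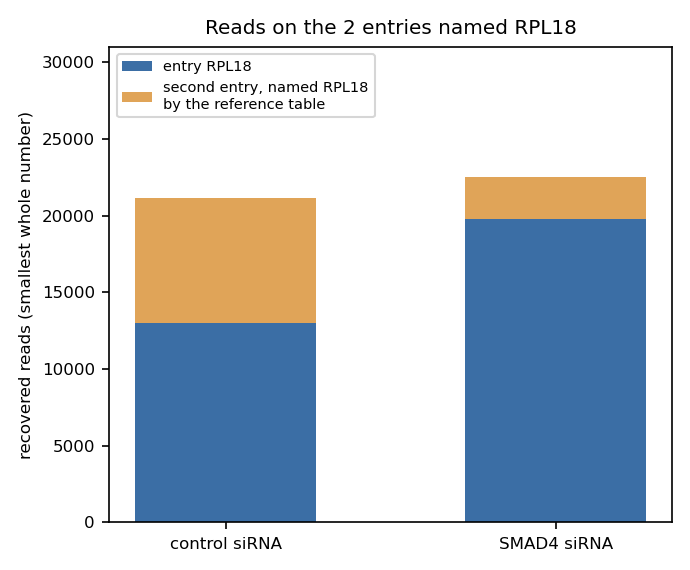
Reads on the 2 entries named RPL18 in each library, stacked, as the smallest whole numbers that the values allow. The total is 21170 (21170.0) for control siRNA and 22544 for SMAD4 siRNA, while the part of the second entry goes from 8144 to 2773.

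Of the 6 measured members that are not core proteins, RPS27L and RPL26L1 have a core relative with values above 0 and were low beside it. RPS27L, a relative of RPS27, had 635 with control siRNA and 638 with SMAD4 siRNA, a ratio of 1.005 (0.891 to 1.13), and stood at 0.983% and 1.11% of the level of RPS27. RPS27 itself had 64560 (64560.1) and 57195, a ratio of 0.886 (0.869 to 0.903), so the intervals of this pair overlap. RPL26L1 had 775 and 898, a ratio of 1.16 (1.02 to 1.31), at 6.09% and 7.30% of the level of RPL26. RPL26 had a ratio of 0.966 (0.932 to 1.002), and the intervals of this pair do not overlap.

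RPL7L1, a relative of RPL7 that works in ribosome assembly, had 715 and 842, a ratio of 1.18 (1.10 to 1.26). RPL36AL had 2813 and 2795, a ratio of 0.993 (0.922 to 1.07), and RPL22L1 had 890 (889.751) and 875, a ratio of 0.984 (0.787 to 1.23) on 156 and 169 reads. RPS19BP1 had 1437 and 1483, a ratio of 1.03 (0.950 to 1.12). RPL7L1 and RPL26L1 were the only ones of the 6 with an interval wholly above 1, and no interval lay wholly below it. RPL3L, a relative of RPL3 typical of striated muscle, was listed at 0.

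Listed at 0 in both libraries were RPL7, RPL10, RPL23, RPL36A, RPL37, RPL3L and RPS2E. The first 5 encode core proteins that every cell needs, so a listed 0 says nothing of their expression. The symbols of the members cover 38 of 47 core large subunit and 26 of 32 core small subunit proteins in human nomenclature, with RPS4 read as RPS4X by its synonym in the reference table. RPL7A, RPL22, RPL28, RPL37A, RPL41, RPS2 and RPS14 were not analysed here.

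The reference table names 8 further entries without a symbol as ribosomal proteins, of which 7 had values. Apart from the second RPL18 entry, their ratios ran from 0.809 for RPL23A to 1.0005 for RPS7. RPLP0, the core of the stalk, had 40369 and 35914, a ratio of 0.890 (0.877 to 0.902), whose interval overlaps that of RPLP1. RPL4, another exit tunnel protein, had 18085 and 17952, a ratio of 0.993 (0.975 to 1.01). RPS24 had a ratio of 0.922 (0.897 to 0.947), and RPL10L, a retrogene relative of RPL10, had 1791 and 1579, a ratio of 0.882 (0.817 to 0.951). RPS15A was listed at 0. FAU, whose product is split into a ribosomal protein and a ubiquitin-like part, had 13513 and 13068, a ratio of 0.967 (0.942 to 0.993).

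Other genes of protein synthesis are given from lists written with earlier results of these data known. Mitochondrial ribosomal proteins, which translate the few proteins encoded in mitochondrial DNA, had a median log2 ratio of 0.12 over 60 measured genes, with 44 above 0 beside 7552 of all 16609 measured genes, 1 higher by 2-fold (MRPS23, 65.1 and 135 on 55 and 126 reads) and 0 lower. Over the 49 with at least 300 reads the median was 0.09 and the interquartile range was 0.20. Entries taken as initiation and elongation factors by symbols beginning with EEF or EIF had a median of 0.09 over 48, with 27 above 0. Of the 48, 1 was higher by 2-fold (EIF2S2, 25.5 and 199 on 12 and 103 reads) and 1 lower (EIF2C3, on 8 and 4 reads). The symbols also take genes with other functions, such as EIF4EBP2, a repressor of initiation. Their median was 0.10 over the 41 with at least 300 reads, where the interquartile range was 0.29. That of the cytosolic members was 0.13. The members have a median of 20294 reads per gene, these 49 mitochondrial genes 1217 and these 41 entries 2939. Counting error therefore widens the ranges of the mitochondrial genes and of these entries more. The differences between these gene groups are within 1 pair of libraries and were not tested.

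Genes of ribosome biogenesis, which process ribosomal RNA and assemble the subunits, had a median log2 ratio of 0.20 over 41 measured genes, with 29 above 0. None of the 41 was past 2-fold. Of the 31 with at least 300 reads, 17 had an interval wholly above 1 and 6 wholly below, where the background is 18.2% and 38.8%. These counts depend on the scaling, which moved the 1288 genes above and 2747 below 1 behind that background to 2821 and 1318 with total reads. The highest, NMD3, an export adaptor of the large subunit, rests on 8 and 15 reads. WDR75, a factor of the small subunit processome, had 25.6 and 39.1, a ratio of 1.53 (1.14 to 2.05). At the low end SBDS, which helps release the anti-association factor from new large subunits, had 347 and 260.2, a ratio of 0.750 (0.663 to 0.849). Genes that escort ribosomal proteins had a median of 0.08 over 8 measured, RPS19BP1 among them.

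TOP messages outside the ribosome had a median log2 ratio of 0.09 over 13 genes, 8 of them above 0, with 0 past 2-fold in either direction. They included EEF1A1, the elongation factor that delivers aminoacyl-tRNA, at 86414 and 76416, a ratio of 0.884 (0.878 to 0.891), and EEF1D, a subunit of its exchange factor, at 5267 and 7435, a ratio of 1.41 (1.36 to 1.46). The regulators of TOP messages and the mTOR pathway had a median of 0.01 over 15, with 0 past 2-fold. Among them EIF4EBP2, a repressor of cap-dependent initiation, had 546 and 278, a ratio of 0.510 (0.482 to 0.539). MYC, which drives transcription of ribosome genes, had 489 and 429, a ratio of 0.877 (0.804 to 0.956).

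**Figure D4:**
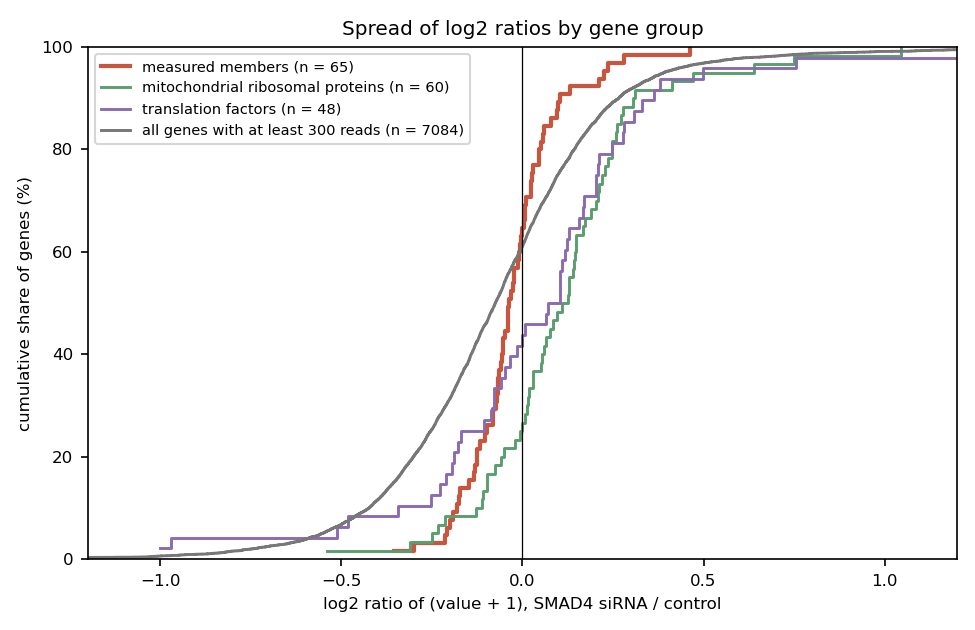
Cumulative share of genes (vertical axis, %) by log2 ratio of value + 1, SMAD4 siRNA over control (horizontal axis), for the 65 measured members, 60 mitochondrial ribosomal proteins, 48 entries with symbols beginning with EEF or EIF (labelled translation factors) and the 7084 genes with at least 300 reads. The curve of the members is the steepest, with an interquartile range from -0.10 to 0.03, and the medians of the mitochondrial proteins and translation factors lie to its right at 0.12 and 0.09; a few genes lie beyond the plotted range. Median reads per gene are 20294 for the members, 827 for the mitochondrial proteins, 1973.5 for the translation factors and 1283 for the 7084 genes. Counting error therefore widens the curve of the members least.

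Within the members the log2 ratio had little relation to the other measures at hand. Over the 65 genes Spearman's correlation of the log2 ratio was 0.09 with the smallest transcript length that the values allow and -0.12 with the mean value. These describe genes of the same 2 libraries and have no test. The smallest length can fall short of the true one by a factor that differs between genes, which may hide a relation to length. The median log2 ratio of genes with at least 300 reads and a smallest length no longer than that of the longest member was -0.03 over 3993 genes, beside -0.04 for the members. The median smallest length of these genes was 1360 bases, beside 641 for the members, so their lengths are not alike.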

How the data were processed

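Total RNA was extracted with TRIzol and pooled, per the labels' protocols, and libraries were made with an Ion Total RNA-Seq kit for the Ion Torrent Proton. The authors deposited RPKM values with upper-quartile scaling, as their table names say. The sources used here do not give the aligner, counter, genome build or annotation. Members and gene lists were chosen with earlier results of these data known.

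Reads were recovered from the values. The commonest ratio between the libraries, 0.908163, gave the divisors up to a common multiple. That multiple was taken from the share of even lengths and of lengths divisible by 5 (42.8% and 21.0% at the multiple used). With divisors of 890 and 980, all 18428 genes above 0 gave whole reads at a length of up to 40000 bases (relative tolerance 2e-09, absolute tolerance 1e-06). The smallest solutions were used, so reads and lengths are lower bounds that can fall short by factors that differ between genes, and intervals are wide rather than narrow for it.

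Differences were taken as log2(value + 1) of SMAD4 siRNA minus that of control, a scale that understates the change of low genes, for genes whose mean was 1 or more. Printed ratios are of plain values. Named were stalk proteins, relatives of core proteins, members with known other roles, the 4 highest and 4 lowest ratios and 3 highest and 3 lowest levels of each subunit, genes listed at 0, and others by role, chosen after their values were seen. A few genes that this rule takes are not reported here, and they stay in the counts and medians. The steps were tested on simulated data. Alternatives were pseudocounts, scalings, minimums, thresholds, means and other choices of members. Symbols of 8 entries without one were looked up in RefSeq's gene table for Sscrofa11.1, which served only for names. Python 3.11.15, NumPy 2.4.6, pandas 2.3.3, SciPy 1.17.1 and Matplotlib 3.10.9 were used.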

Additional observations from a re-analysis of the deposited data

How the results depend on the processing

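The median log2 ratio of the members moved with the scaling of the libraries. It was -0.04 as deposited, 0.082 with the values of both libraries brought to one sum, 0.011 centred on the median of all genes, and 0.13 scaled by total reads, an alternative chosen after seeing the data. For the large subunit these were -0.02, 0.093, 0.024 and 0.14, and for the small subunit -0.04, 0.077, 0.0062 and 0.12. These scalings move all genes alike, apart from the weight of the pseudocount. The difference between the subunits was 0.018 as deposited. It ran from 0.00827 with the entries named by the reference table added to 0.052 with means in place of medians. That range covers all 12 alternatives run for it. These include scalings, which shift both subunits alike, and minimums on level and reads, which removed no member. Such alternatives could hardly change the difference. The count of members past 2-fold was 0 in both directions under all 12 alternatives run for it, except that adding the entries named by the reference table gave 1 lower, the second RPL18 entry. That alternative, leaving out RPL18 and scaling by total reads were chosen after seeing the data. The members' share of the summed values, 11.4% and 12.0%, was 12.9% and 13.4% with messenger RNA entries alone in the sum, 11.38% and 11.98% with core proteins alone, and 5.23% and 5.69% as a share of smallest whole reads, which weights genes by length. Of 35 named members, all kept their log2 ratio within counting error with pseudocounts of 0.1 and 5, and 31 moved by more when rescaled to the same sum. No paired analysis was possible because each group has 1 library, and for the same reason none could be left out. Depth limits the members little: the widest interval, that of RPL22L1, spans 0.32 to either side on the log2 scale.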
